A study of Homo sapiens with 28 samples.

Results

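New and old RNA were compared gene by gene within 6 s4U-labelled libraries of HEK293T cells, an established human embryonic kidney cell line, prepared with improved handling (IH). The libraries were 2 from each of 3 conversion chemistries, and they were chosen by title from the 18 libraries of the count table and the 28 samples of the series. Cells of all 6 libraries had received 100 µM s4U for 2 h, and 3 unlabelled libraries, 1 per chemistry and handled the same way, had received none. For conversion, RNA was oxidised by periodate in the presence of trifluoroethylamine (NaIO4 and TFEA, titled TL), alkylated by iodoacetamide (SLAM), or treated by osmium tetroxide in ammonia (OsO4 and NH3, TUC). All libraries came from Trizol-extracted, DNase-treated total RNA and a stranded low-input total RNA kit. Within each library, exonic reads aligned with HISAT-3N were called new where they carried 2 or more T-to-C mismatches and old where they carried 0; reads with 1 mismatch entered neither fraction. The labels do not say whether the 2 libraries of a chemistry came from separate cultures, so the p-values measure the spread between these libraries, which may be technical.

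4-thiouridine (s4U) is a uridine analogue that cells take up and build into RNA while it is transcribed. Chemical conversion of the thione makes reverse transcriptase read these positions as C, so a read with T-to-C mismatches marks RNA made during the labelling period. In a growing cell, the share of new reads of a transcript follows how fast it is replaced: RNAs that are degraded quickly, such as those of transcription regulators, fill with label, whereas ribosomal RNA, ribosomal protein mRNAs and small structural RNAs made by RNA polymerase III persist for long. Introns are removed soon after synthesis, so intronic reads come largely from young precursor RNA.

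The 6 labelled libraries held 867400 to 2169913 exonic reads assigned to a gene, and the 3 unlabelled libraries 1339683 to 4604325. New reads made up 16.9% and 14.3% of them in the NaIO4 and TFEA libraries. They made up 14.8% and 14.2% in the iodoacetamide libraries and 24.7% and 19.9% in the OsO4 and NH3 libraries. All 6 shares lay far above the background: the unlabelled libraries held 0.0564%, 0.0899% and 0.0509% reads with 2 or more mismatches in the same order of chemistries. The mean difference was 17.4 percentage points (two-sided exact test over the 27 permutations of labels inside the chemistries, p = 0.0370, the lowest it can reach). The 95% Wilson interval of a labelled library's share reached at most 0.0748 points to either side, which covers counting error only, since reads are not independent molecules. Old reads made up 66.8% to 75.3% of the labelled libraries and 96.4% to 97.3% of the unlabelled ones.

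**Figure D1:**
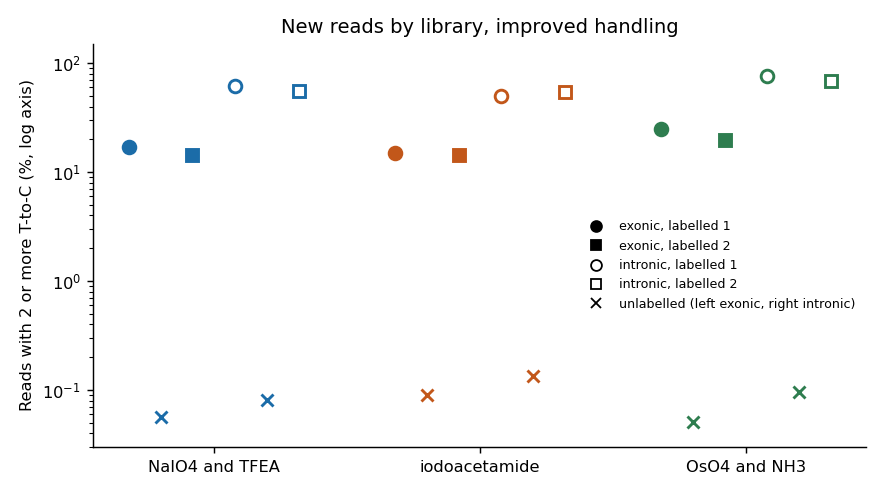
Percent of gene-assigned reads with 2 or more T-to-C mismatches (log axis) in each improved-handling library, by chemistry. Filled symbols are exonic reads, open symbols intronic reads and crosses unlabelled libraries; labelled exonic shares lie between 14.2% and 24.7%, intronic ones between 50.5% and 75.8%, and all unlabelled values below 0.135%.

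Intronic reads of the same libraries, which were not part of the new against old comparison, were new far more often than exonic ones. Their new share was 61.7% and 55.1% with NaIO4 and TFEA, 50.5% and 54.1% with iodoacetamide, and 75.8% and 68.7% with OsO4 and NH3. In the unlabelled libraries it was 0.0813% to 0.134%. Gene by gene, 1502 genes had at least 50 new plus old reads of each kind in every labelled library. In 1484 of them the intronic new share exceeded the exonic one in all 6 libraries, and in 2 it was lower in all 6. The median gene of this set had an exonic new share of 17.2% to 29.1% and an intronic one of 76.1% to 91.3%, depending on the library. Across these genes, the 2 shares were only loosely related (Spearman's rho 0.291 to 0.363 within a library, a description over genes that share depth and annotation).

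Among new reads, the number of mismatches differed by chemistry. A new read carried on average 3.41 and 3.15 T-to-C mismatches with NaIO4 and TFEA, 3.56 and 3.34 with iodoacetamide, and 4.69 and 4.05 with OsO4 and NH3. The OsO4 and NH3 libraries lay above the other 4 per read, but not per T position: per 100 T positions of new reads the mismatches were 8.35 and 7.47, 10.1 and 9.12, and 11.2 and 9.49 in the same order. Reads with 5 or more mismatches formed 39.2% and 29.9% of their new reads against 14.8% to 22.7% in the others. In the unlabelled libraries the few reads classed as new averaged 2.06 to 2.18 mismatches, close to the minimum that defines the class. New reads also contained more T positions than old ones, 39.9 ± 3.14 against 34.8 ± 1.47 (SD, n = 6), a paired difference of 5.11 ± 1.80 (SD, n = 6; two-sided exact sign-flip test, p = 0.0312, the smallest possible). The difference was between 2.22 and 7.02 in every library, and it was also present in the unlabelled ones, at 4.22 to 7.30. A read with more T positions has more chances to carry 2 mismatches, so the definition of new itself favours such reads. The gene results were therefore also computed with only reads of 20 to 40 T positions.

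Of 21683 genes with an exonic read in these libraries, 8601 passed the filter on low counts and were tested. After TMM scaling, which sets each gene against the typical gene, 2932 genes (34.1% of those tested) had a higher level in new than in old RNA and 3012 genes (35.0%) a lower one (edgeR quasi-likelihood test paired by library, adjusted p under 0.05). With raw totals in place of TMM, the split was 3804 higher and 2193 lower: the TMM factors move all genes together by 0.35 on the log2 scale, so "higher" and "lower" are relative to that centre. A gene with few reads can pass the filter through the fraction in which it is high, so the split describes this tested set only. Among the 3267 genes with at least 100 reads per library on average, 24.7% were higher and 54.0% lower. Of the called genes, 2453 higher and 2409 lower ones had the same sign in all 6 libraries. When only reads with 20 to 40 T positions were kept, 4527 of the called genes could still be tested; 3791 were called with the same sign and 1 with the opposite sign. With STAR in place of HISAT-3N, 5864 could be tested, 5483 were called with the same sign and 3 with the opposite one.

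**Figure D2:**
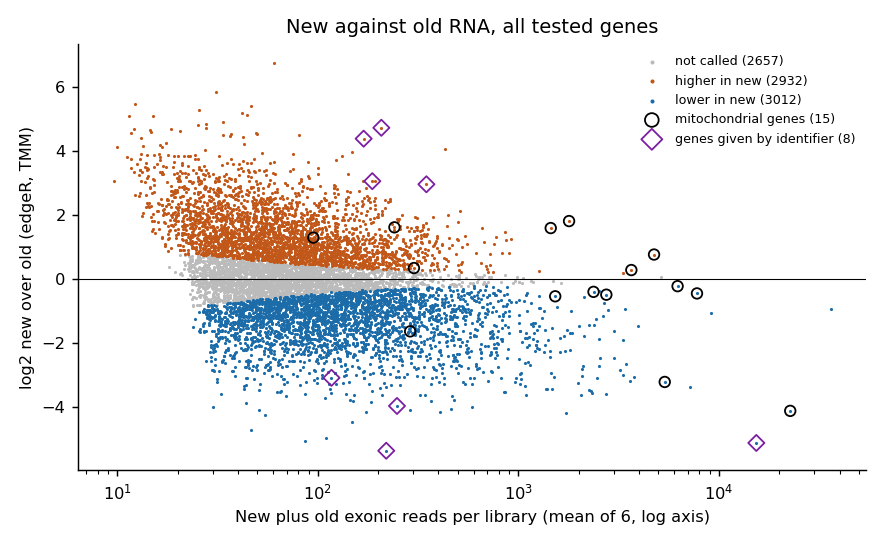
log2 new over old (edgeR, TMM-scaled, y axis) against the mean number of new plus old exonic reads per library (x axis, log) for the 8601 tested genes. Orange and blue points are the 2932 higher and 3012 lower genes; circles mark the 15 mitochondrial genes and diamonds the 8 genes given by identifier, which lie between 4.73 and -5.38.

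New shares spread over a wide range. In 1607 genes with at least 100 new plus old reads in each of the 6 libraries, the median gene had a new share of 12.4% to 21.5%, depending on the library. From the 5% to the 95% quantile, these genes ran from 2.70% to 35.3% in the second NaIO4 and TFEA library and from 5.64% to 52.1% in the first OsO4 and NH3 library. In 4 genes more than 50% of the reads were new in every library, and in 48 genes fewer than 5% were. The order of the genes was much the same in every library: Spearman's rho of the new share was 0.870 to 0.952 between the 2 libraries of a chemistry and 0.862 to 0.944 between libraries of different chemistries, as a description over these 1607 genes.

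Deeply covered genes were more often old. In the quintile of the tested genes with the most reads, 173 or more per library, 63.2% were lower in new RNA and 20.9% higher, with a median log2 new over old of -0.70. In the next quintile, from 95.3 to 172.8 reads, 43.1% were lower and 29.7% higher, with a median of -0.23. The quintiles below 95.3 reads are not read here: the filter asks for enough reads in a fraction, so a gene with few reads can pass through the fraction in which it is high. T content moved with the ratio too, over the 3267 genes with at least 100 reads on average. In the quintile whose reads held the fewest T positions (up to 31.0 per read), 10.7% were higher and 76.9% lower, with a median of -1.25. The medians of the next quintiles were -0.57, -0.32 and -0.15. In the quintile with the most (41.6 or more), 31.3% were higher and 42.8% lower, with a median of -0.19, so the increase levelled off. Spearman's rho of T positions with log2 new over old was 0.32 over these genes, and 0.24 with reads of 20 to 40 T positions only (3261 genes).

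The count table names genes by Ensembl identifier, and the reference gene list used here does not pair those identifiers with symbols, so the strongest genes are given by identifier and chromosome. Among genes with at least 100 reads per library on average and calls with both aligners, the largest rise was that of ENSG00000265972 on chromosome 1, most of whose reads were new in each library. Its new share was 89.2% and 84.9% with NaIO4 and TFEA, 88.9% and 77.6% with iodoacetamide, and 95.1% and 90.6% with OsO4 and NH3. In the 3 unlabelled libraries together, 1 of its 1128 new plus old reads had 2 or more mismatches. Its log2 new over old was 4.73 ± 0.15 (SE; edgeR adjusted p = 1.91e-51), and the alternatives ran from 3.002 to 5.09. ENSG00000225630, also on chromosome 1, followed with new shares of 88.9% and 83.3%, 82.0% and 82.0%, and 91.7% and 84.4% in the same order of chemistries. Its log2 value was 4.39 ± 0.15 (SE; edgeR adjusted p = 6.02e-48) with HISAT-3N and 1.62 (edgeR adjusted p = 1.07e-08) with STAR, so the aligner moved it by more than for the first gene, whose STAR value was 4.95.

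At the other end stood genes that were almost wholly old. ENSG00000276168 on chromosome 14 is covered by 15386 new plus old reads per library on average. Its new share was 0.801% and 0.638% with NaIO4 and TFEA, 0.908% and 0.863% with iodoacetamide, and 1.09% and 0.758% with OsO4 and NH3. These values lie below the 16.0% to 27.03% of all new plus old exonic reads in the 6 libraries, and above the 0.0723% (33 of 45630 reads) of the 3 unlabelled libraries together. The log2 new over old was -5.14 ± 0.08 (SE; edgeR adjusted p = 7.23e-78), -4.37 with STAR, -4.11 with HISAT2, -3.84 with new set at 1 or more mismatches and -6.55 with intronic reads included. ENSG00000270641 on chromosome X had 219.7 reads per library and 0, 0, 1, 1, 2 and 5 new reads in the 6 libraries. Its new shares were 0% to 2.27%. In the 3 unlabelled libraries together, 1 of its 1205 new plus old reads was new, a share of 0.610% in the OsO4 and NH3 library. The labelled OsO4 and NH3 libraries, at 0% and 0.495%, did not exceed that. The log2 value of this gene was -5.38 ± 0.31 (SE, edgeR adjusted p = 1.09e-30). On these few new reads it moved to -6.31 without the second NaIO4 and TFEA library, -7.13 with intronic reads included and -3.42 with new set at 1 or more mismatches.

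Of 2214 genes called with 1 sign in all 6 libraries and at least 100 reads per library on average, 66 were not called in the same direction with STAR; 7 of them were not tested there, 58 were tested and not called, and 1 was called in the opposite direction. That gene was ENSG00000248527 on chromosome 1, whose new share was 60% to 79.3% with HISAT-3N. Its log2 new over old was 2.96 ± 0.11 (SE; edgeR adjusted p = 1.66e-45) with HISAT-3N, -0.66 with STAR (edgeR adjusted p = 1.20e-08) and -0.36 with HISAT2 (edgeR adjusted p = 0.00165). ENSG00000229344 on chromosome 1 (log2 3.06, new share 59.7% to 80.5%) was not tested with STAR, and its alternatives ran from 1.31 to 3.41. Among the falls, neither ENSG00000265735 on chromosome 9 (-3.98, 0.597% to 2.97%) nor ENSG00000226221 on chromosome 5 (-3.10, 1.25% to 6.16%) was tested with STAR. Their alternatives ran from -5.98 to -2.50 and from -5.02 to -2.51. How the authors assigned reads that fit more than 1 place is not given in the sources used here. Why the aligners differed in these genes was not tested.

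**Figure D3:**
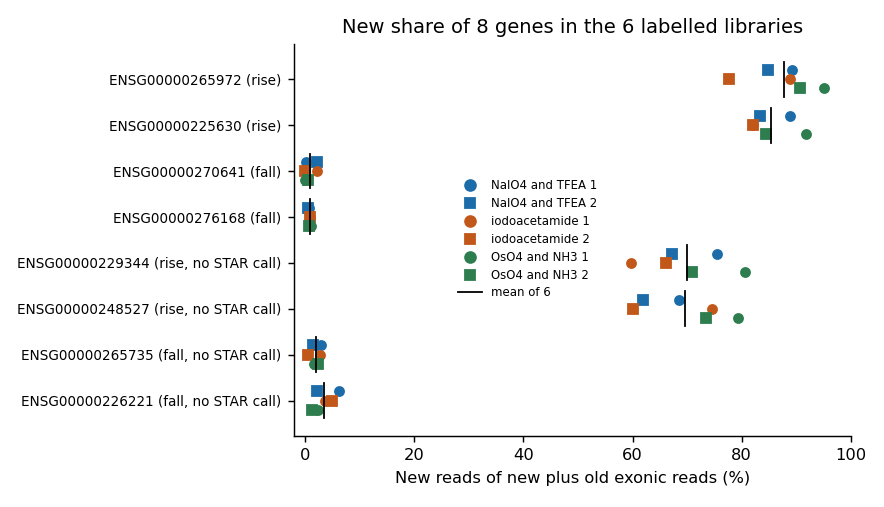
New reads as a percent of new plus old exonic reads (x axis) in each of the 6 labelled libraries for the 8 genes given by identifier; colours are chemistries, circles and squares replicates 1 and 2, and black bars the mean of 6. The 4 risen genes lie at 59.7% or above in every library and the 4 fallen genes at 6.16% or below.

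Mitochondrial RNA, transcribed from the circular genome of the organelle as long precursors that are cut into rRNAs, tRNAs and mRNAs, ranged from mostly old to about equally new and old. Of 15 tested mitochondrial genes, 7 were higher (46.7%) and 8 lower (53.3%) in new RNA, against 34.1% and 35.0% of all tested genes. With raw totals, 7 were higher and 4 lower, where all tested genes gave 63.4% of their calls higher; with HISAT2, 8 and 4; with new set at 1 or more mismatches, 8 and 3; and with intronic reads included, 0 and 11, so how many lie on each side of the typical gene depends on these choices, and no higher call is left when intronic reads are included. Among genes with at least 100 reads per library on average, 6 of 14 mitochondrial genes were higher (42.9%) and 8 lower (57.1%). All 3267 genes of that depth gave 24.7% higher and 54.0% lower, so the share of lower calls was similar there. The most abundant mitochondrial gene, with 22708 reads per library, was new in only 0.945% to 2.93% of them (log2 -4.13 ± 0.07, SE). A second abundant one, with 5375 reads, was new in 2.21% to 5.30% (log2 -3.23 ± 0.08, SE). These did not overlap with the highest gene, new in 40.9% to 66.4% of its 1792 reads per library (log2 1.81 ± 0.08, SE). Between them, 5 genes with 1529 to 7784 reads lay close together, at mean new shares of 17.0% to 20.3%. All mitochondrial genes together gave 2.95% to 3.57% of the new reads and 4.22% to 5.96% of the old ones, ranges that did not overlap. The 2 lowest genes, with 22708 and 5375 reads per library and at most 5.30% new, weigh heavily in these totals. The totals without them were not computed, so they do not describe the other mitochondrial genes.

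**Figure D4:**
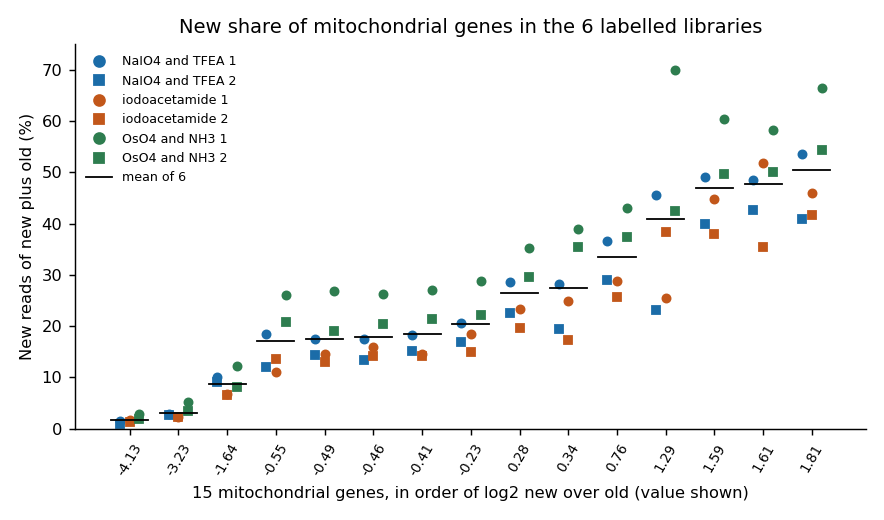
New reads as a percent of new plus old exonic reads (y axis) for the 15 tested mitochondrial genes in the 6 labelled libraries, ordered by log2 new over old (x labels); colours are chemistries, symbols replicates and bars the mean of 6. The 2 lowest genes stay at 5.30% or below, and the gene with the highest log2 value reaches 66.4%. The highest single share, 70.0%, is that of ENSG00000198695 in the first OsO4 and NH3 library.

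Chromosomes 19 and X stood at the old end among the nuclear chromosomes. In 3267 genes with at least 100 new plus old reads per library on average, which lie well above the low-count filter, 24.7% were higher in new RNA, 54.0% lower, and the median log2 new over old was -0.47. On chromosome 19, 14 of 172 such genes were higher (8.14%) and 134 lower (77.9%), with a median of -1.41. On chromosome X, 25 of 148 were higher (16.9%) and 104 lower (70.3%), with a median of -1.11. The other nuclear chromosomes with at least 10 such genes had medians from -0.64 on chromosome 11 to -0.16 on chromosome 3. Over all tested genes, of which 34.1% were higher and 35.0% lower, chromosome 19 had 26.2% higher and 50.9% lower of 481, and chromosome X 22.9% and 51.8% of 332. Chromosomes 18 and 13 had the highest medians over all tested genes, 0.28 and 0.24, but -0.46 and -0.30 over the deeply covered ones. No test was made on chromosomes.

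A joint fit of all 6 libraries, with a term per chemistry, called genes in both directions for each chemistry. The chemistries shared their spread in this fit, since each has 2 libraries. With NaIO4 and TFEA, 2165 genes (25.2%) were higher and 2212 (25.7%) lower. With iodoacetamide, 1863 (21.7%) were higher and 1832 (21.3%) lower, and with OsO4 and NH3, 2315 (26.9%) and 2483 (28.9%). All 3 chemistries called 1447 genes higher and 1459 lower, and no gene called in all 3 was mixed in sign. Of the 5944 genes called over all 6 libraries, 5790 (97.4%) had the same sign in each chemistry. The call rests on these same libraries, so this share is a description. The differences between the chemistries passed the test in 0 genes (edgeR, 556 at an unadjusted p under 0.05, smallest adjusted p = 0.238), and the 3 pairs gave 0 each. Without the second iodoacetamide library 8 genes were called, and without the first 1. The absence of calls does not show that the chemistries act alike: 2-fold differences simulated for OsO4 and NH3 were recovered in 14 of 200 genes. In 3267 genes with at least 100 reads, the median absolute log2 difference was 0.32 between OsO4 and NH3 and iodoacetamide, 0.25 between OsO4 and NH3 and NaIO4 and TFEA, and 0.31 between NaIO4 and TFEA and iodoacetamide, with median SEs of 0.40, 0.37 and 0.41.

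Nearly every tested gene contained label. Relative to the unlabelled libraries, 11374 of 11587 tested genes (98.2%) had more new reads against old ones in labelled cells, and 0 had fewer (edgeR interaction of fraction and label; the same 11374 passed an unadjusted p under 0.05, all of them higher). The background was thin: 9271 of these genes (80.0%) had no new read in the 3 unlabelled libraries together. A gene without a new read in the background cannot show fewer of them, so the 0 is no result for those genes. The 213 genes not called had a median of 56.0 exonic reads over the 6 labelled libraries, against 319 for those called, and 28 of them had no new read in any labelled library. Only 9 of the 8601 genes of the main comparison had more than 5% new reads in any unlabelled library, and leaving these out left 2928 higher and 3011 lower.

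The pattern was then compared with drop-out handling (DO), in 6 libraries of the same chemistries and s4U treatment. New reads made up 7.22% and 3.58% of exonic reads there with NaIO4 and TFEA, and 7.36% and 3.79% with iodoacetamide. With OsO4 and NH3 they made up 10.1% and 5.56%. All 6 shares lay below the 14.2% to 24.7% of improved handling, and the first library of each chemistry lay above the second. New over old relative to the typical gene was higher under improved handling in 789 genes (10.3% of 7671 tested) and lower in 387 (5.04%; edgeR interaction). With raw totals the split turned to 295 higher and 1213 lower, so the split depends on the scaling. The 789 genes had a median new share of 18.0% under improved handling and 3.05% under drop-out, against 21.3% and 9.40% over all tested genes. The 387 genes kept 27.2% and 30.9%. Among the 789, 398 (50.4%) were lower in new RNA in the main comparison and 151 (19.1%) higher, against 37.0% and 29.8% of all 7671. Among the 387, 32.8% were lower and 47.5% higher. The main comparison shares these improved-handling libraries, so these shares are a description.

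Single genes were ranked among those with at least 50 reads in each library and the same sign in each chemistry. The largest gains under improved handling there were those of ENSG00000168056 and ENSG00000167792, both on chromosome 11. The first had new shares of 0% to 10.6% under improved handling, 0% in the second iodoacetamide library, and 0% in 5 of 6 drop-out libraries, so the groups overlapped; it was called (edgeR adjusted p = 0.00445), and no fold is given against a group of nearly all 0 counts. The second had 4.38% to 10.2% against 0% to 1.71%, with no overlap (log2 difference 3.23 ± 0.47, SE; edgeR adjusted p = 8.17e-10). ENSG00000185567 on chromosome 14 and ENSG00000169714 on chromosome 3 went the other way, with log2 differences of -1.60 ± 0.41 and -1.54 ± 0.26 (SE; edgeR adjusted p = 0.00190 and 3.74e-07). The new share of the first was 4.48% to 14.3% under improved handling and 3.06% to 16.1% under drop-out, so its groups overlapped. The new share of the latter was 13.8% to 24.7% under improved handling and 3.03% to 37.0% under drop-out, which overlapped too, and both differences are relative to the typical gene.

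Gene symbols came with another readout, the rate constants of RNA degradation that the authors deposited, estimated with bakR from the improved-handling libraries. A rate constant of this kind is high where an RNA is replaced fast. Its time unit is not stated, and each chemistry has 1 value per transcript with no replicate error, so the values were compared within the table only. It lists 2209 transcripts for NaIO4 and TFEA, 1600 for iodoacetamide and 2262 for OsO4 and NH3, with medians of 0.102, 0.0833 and 0.0998. The 1471 transcripts listed for all 3 ranked alike (Spearman's rho 0.921 to 0.944, a description). Of 10 HEK293T markers, 5 are listed (KRT18, NEFL, NEFM, SALL2 and VIM), and of 12 markers of other cell types, such as PTPRC of leukocytes and COL1A1 of fibroblasts, 0 are. Values below are given in the order NaIO4 and TFEA, iodoacetamide, OsO4 and NH3, and lists were read against the median of all transcripts of the same chemistry.

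High values were found for several transcripts of regulators. In the authors' deposited table, DDIT4, an inhibitor of mTORC1 signalling made under stress, had rate constants of 1.11, 1.05 and 1.04. MYC, a transcription factor that drives cell growth, had 0.937, 0.953 and 0.871 there. JUN, a subunit of the AP-1 factor, had 0.668, 0.547 and 0.563 in the authors' deposited table, and SOX4, a developmental transcription factor, 0.560, 0.534 and 0.600. All 5 listed members of the immediate-early list lay above the median in NaIO4 and TFEA and in OsO4 and NH3, and all 3 did in iodoacetamide. That list has 45 entries, and those without a rate constant are not described. PPP1R15A, which directs removal of the phosphate on eIF2 alpha, had 0.813 and 0.648 in the authors' deposited table for the 2 chemistries that list it. Zinc finger factors were above the median in 20 of 20, 11 of 12 and 18 of 18 transcripts; ZNF503 had 0.672, 0.538 and 0.664 in the authors' deposited table. Developmental and ID regulators were above it in 8 of 8, 4 of 5 and 7 of 8 transcripts of the authors' deposited table, which holds 10 of the 39 entries of this list.

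RNA-processing and cell cycle factors were also above the median for the most part. SR proteins and related splicing factors, which set splice site choice, were above it in 8 of 9, 7 of 7 and 5 of 5 transcripts of the authors' deposited table, none of them a CLK kinase although the list names these too. SRSF4 had 0.315, 0.276 and 0.276 there, and SRSF7 0.244, 0.203 and 0.243. Cyclins and mitotic regulators were above it in 10 of 12, 9 of 10 and 14 of 16. CDC25A, a phosphatase that activates cyclin-dependent kinases, had 0.310, 0.258 and 0.295 in the authors' deposited table, and CCND2, a G1 cyclin, 0.273, 0.162 and 0.276. Replication histone mRNAs, which end in a stem-loop and exist mainly in S phase, were above the median in 22 of 25, 17 of 21 and 23 of 27. The list medians were 0.129, 0.121 and 0.129, and HIST1H2BD lay above them with 0.219, 0.182 and 0.209 in the authors' deposited table. Host RNAs of snoRNAs were above it in 4 of 6, 4 of 6 and 6 of 7; SNHG1 had 0.269, 0.237 and 0.314 in the authors' deposited table.

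ATF4 targets, genes of the amino acid response, were divided: 5 of 11, 7 of 11 and 8 of 11 were above the median. SESN2, an inhibitor of mTORC1, had 0.740, 0.585 and 0.705 in the authors' deposited table. Of the serine synthesis enzymes, PHGDH had 0.0425, 0.0412 and 0.0495 and PSAT1 0.0760, 0.0524 and 0.102 in the authors' deposited table, the last just above its median. The list's median was also set against that of all transcripts with only the transcripts listed for all 3 chemistries. It moved from 0.990 to 2.44 times in NaIO4 and TFEA and from 1.16 to 2.54 times in iodoacetamide. In OsO4 and NH3 it fell from 3.13 to 2.24 times, so the list's place depends on which members are listed.

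Several lists lay below the median for most of their members. In the authors' deposited table, 3 of 72 cytoplasmic ribosomal protein transcripts were above the median in NaIO4 and TFEA, 2 of 71 in iodoacetamide and 3 of 72 in OsO4 and NH3, with list medians of 0.0276, 0.0231 and 0.0331. RPLP2, a subunit of the ribosomal stalk, had 0.0121, 0.00979 and 0.0102 there, and RPS21 of the small subunit 0.0175, 0.0105 and 0.0191. The exceptions in the authors' deposited table included RPL36A, with 0.420 for NaIO4 and TFEA and 0.391 for OsO4 and NH3. RPS29 had 0.229, 0.134 and 0.177 there. RPL7L1, an RPL7-like gene that entered the list through its name, had 0.257, 0.185 and 0.225 in the authors' deposited table. None of the 10, 9 and 11 glycolytic enzymes was above the median; PKM, the pyruvate kinase, had 0.0472, 0.0347 and 0.0459 in the authors' deposited table. Nuclear-encoded subunits of oxidative phosphorylation were above it in 4 of 32, 3 of 26 and 7 of 38. Actins and actin-binding proteins were above it in 1 of 15, 0 of 14 and 0 of 14, sterol synthesis genes in 0 of 7, 0 of 6 and 0 of 7, and proteasome subunits in 4 of 15, 3 of 11 and 2 of 15. Among chaperones, above it in 3 of 19, 2 of 18 and 3 of 18, HSPA8 (0.166, 0.115 and 0.180 in the authors' deposited table) stood apart from HSP90AA1 (0.0245, 0.0177 and 0.0259).

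Structural RNAs, beside mRNAs such as RPLP2, were among the lowest. RPPH1, the RNA of RNase P, had 0.00636, 0.00537 and 0.00600 in the authors' deposited table. RN7SL1, the RNA of the signal recognition particle, had 0.0142, 0.00708 and 0.00990 there, and RMRP, the RNA of RNase MRP, 0.0118, 0.0103 and 0.00953. 7SK, which holds the elongation factor P-TEFb inactive, had 0.0196, 0.0121 and 0.0165 in the authors' deposited table. None of the 5, 5 and 6 listed RNAs of this kind was above the median.

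**Figure D5:**
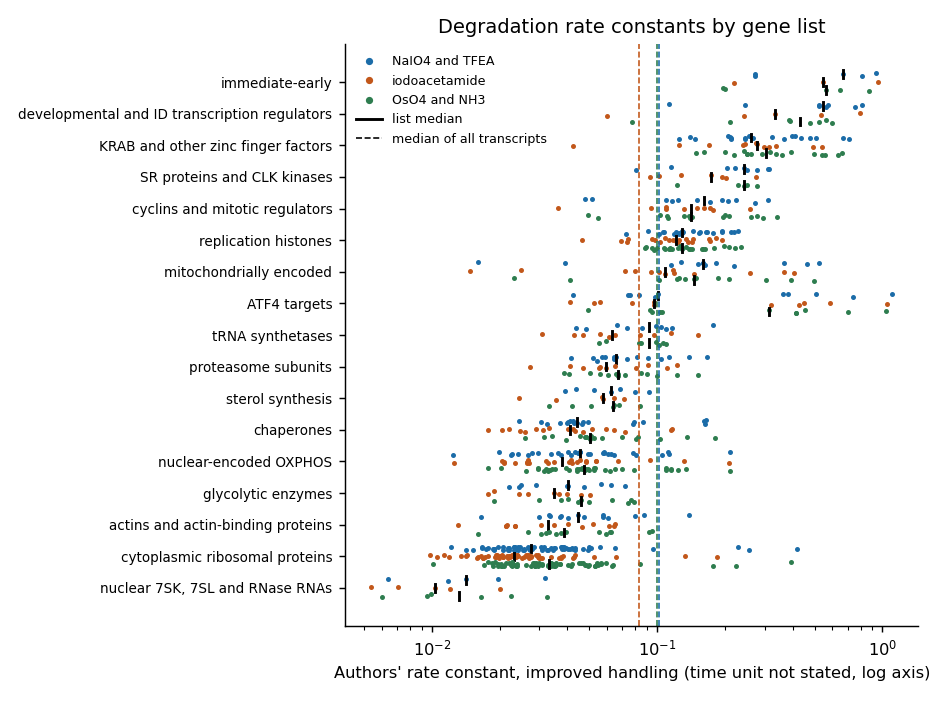
The authors' degradation rate constants under improved handling (x axis, log; time unit not stated) for members of 17 gene lists, with 1 point per transcript and chemistry, black bars for list medians and dashed lines for the median of all transcripts (0.102, 0.0833 and 0.0998). The medians of the immediate-early, developmental and zinc finger lists lie to the right of the lines, and those of the ribosomal protein and structural RNA lists to the left; some members of the developmental, zinc finger and ribosomal protein lists lie on the other side.

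Mitochondrially encoded transcripts also had names in that table. In the authors' deposited table, MT-RNR2 and MT-RNR1, the large and small rRNAs, had 0.0160, 0.0147 and 0.0231 and 0.0388, 0.0249 and 0.0411. MT-ND1 and MT-ND2, subunits of complex I, had 0.523, 0.404 and 0.497 and 0.462, 0.367 and 0.395 there. MT-CO1, the catalytic subunit of complex IV, lay between, with 0.116, 0.0939 and 0.123 in the authors' deposited table. Of 13 listed, 11, 9 and 11 were above the median. No match between the identifiers and these names could be made, so the 2 readouts are given side by side.

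Ribosomal protein genes are known for transcripts that begin with a C followed by a run of pyrimidines, the 5′ terminal oligopyrimidine (TOP) motif that ties their translation to mTORC1. The starts of 4 slow ribosomal protein transcripts that carry it and, for contrast, of 2 fast transcripts that do not, all picked for display, are given from 40 bases before to 20 bases from the start of transcription in RefSeq (GRCh38.p14), with the C and its pyrimidine run in capitals.
RPLP2 (chr11:809927-809986, + strand): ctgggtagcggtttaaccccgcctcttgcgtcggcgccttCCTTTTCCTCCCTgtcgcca
RPS21 (chr20:62387063-62387122, + strand): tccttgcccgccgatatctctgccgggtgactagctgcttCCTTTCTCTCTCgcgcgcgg
RPLP0 (chr12:120201092-120201151, - strand): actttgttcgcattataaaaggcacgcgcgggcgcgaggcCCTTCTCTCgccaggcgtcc
RPL13A (chr19:49487568-49487627, + strand): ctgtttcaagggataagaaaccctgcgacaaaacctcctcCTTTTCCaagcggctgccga
DDIT4 (chr10:72273884-72273943, + strand): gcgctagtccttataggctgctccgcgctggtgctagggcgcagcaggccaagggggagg
JUN (chr1:58784028-58784087, - strand): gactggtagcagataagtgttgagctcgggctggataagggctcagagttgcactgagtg

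A start of C and at least 4 further pyrimidines (C or T, on the gene's own strand) was found in 39 of 58 ribosomal protein promoters with a RefSeq sequence (67.2%), and in 1104 of all 27305 promoters of that table (4.04%). It stood in 9 of 11 promoters of elongation factors and other TOP mRNAs, a list chosen for this motif, in 4 of 32 of oxidative phosphorylation subunits (12.5%) and in 0 of 11 of glycolytic enzymes, lists with low rate constants, and in 3 of 22 of zinc finger factors (13.6%), a list with high ones. Among 2086 promoters of other names in the rate table, 143 had it (6.86%), which is the closer background for these small lists. Among ribosomal protein transcripts, the authors' deposited table gives medians of 0.0269, 0.0225 and 0.0309 for those with the start and 0.0342, 0.0240 and 0.0349 for the 19 without it. Outside this list, the 143 transcripts with such a start had medians of 0.0760, 0.0650 and 0.0783, and the 1943 without it 0.108, 0.0898 and 0.104, in the authors' deposited table. For oxidative phosphorylation subunits the medians were 0.0494, 0.0419 and 0.0469 with it and 0.0444, 0.0400 and 0.0483 without, in the authors' deposited table. A match describes these letters at the annotated start and is no measure of the motif's use in these cells.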

How the data were processed

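Reads of HEK293T libraries were counted by the authors: the deposited count table gives the number of reads (counts, not normalized) per library, aligner, gene, intronic flag, T-to-C number and T number. Per the submitters' processing notes, the build was GRCh38 and cutadapt, HISAT, HISAT2, STAR, Picard, HTSeq and DESeq2 were used, with versions and roles not given in the sources used here; the settings code D is not defined there. Reads that name no single gene (17.5% to 25.7% of a library) were left out. The authors' deposited rate constants are bakR estimates. Of 2568 names in that table, 2540 matched a reference symbol; members of lists were matched on the table's name or the updated symbol.

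Gene counts were filtered with filterByExpr by fraction, scaled by TMM and fitted with edgeR 4.0.16 (R 4.3.3), each library entering as a new and an old column with a term per library; adjusted p-values are Benjamini-Hochberg. SE is the log2 fold over the root of F. Relative to the unlabelled libraries, both fractions of a library shared 1 library size. DESeq2 1.42.0 was an alternative. The fits were tested on simulated data with 200 genes changed 2-fold. For new against old, 149 of these (74.5%) were recovered. For the difference of OsO4 and NH3 it was 14 (7%), and for the handling difference 25 (12.5%). Those 2 comparisons thus miss most changes of this size. The 2 libraries of each chemistry were not duplicates: chi-square over its degrees of freedom was 2.13 to 2.32.

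Genes named by identifier passed 0.05 after adjustment, with 1 sign in all 6 libraries and at least 100 reads per library on average, with a call of the same sign with STAR, or lacking only that call; the 2 largest of each direction are given. For the handling difference at least 50 reads in each library and the same sign in each chemistry were also asked, a rule set after seeing the data. The planned counts of gene list members in the fit could not be made, since identifiers and symbols could not be paired, and lists were described in the rate constants instead. The members and lists were chosen with earlier results of these data known. The comparison of introns and exons, the chromosomes, the quintiles and the promoter starts were added after seeing the data.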

Additional observations from a re-analysis of the deposited data

Results flagged for a closer look

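The ratio of new over old differed between handlings in 1176 genes by the interaction term of edgeR. In ENSG00000168056 the new share was 0.455% in 1 drop-out library, the second of iodoacetamide, and 0% in the other 5. In ENSG00000167792 the first iodoacetamide drop-out library, at 1.71%, lay apart from the other 5 drop-out libraries. In ENSG00000169714 the first OsO4 and NH3 library of improved handling, at 24.7%, lay apart from the other 5. Such a gap arises by chance in about 1 of 20 groups of normally distributed values. That rate does not hold for ENSG00000168056, whose other 5 values were 0%. Nor does it hold for raw shares of libraries that differ in their new share over all exonic reads, as these libraries did. In ENSG00000169714 the library set apart also had the highest such share among the labelled libraries of improved handling. The gap of this gene is therefore not separated from the level of that library.

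Reads outside the comparison carried signal too. Reads with exactly 1 T-to-C mismatch formed 9.84% of the exonic gene reads of the labelled libraries on average, against 2.66% to 3.48% in the unlabelled ones. Intronic reads with 2 or more mismatches formed 61.0% of intronic gene reads on average, against at most 0.134% in the unlabelled libraries.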

How the results depend on the processing

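The count of 5944 genes in new against old stayed within 1.5 times under all alternatives run but 1: with intronic reads included, 9125 genes were called. Leaving out 1 library gave 5484 to 6357 genes, and dropping the library term (no replicate block) gave 6099. Chemistry differences, 0 genes, became 5 with new set at 1 or more mismatches, and 0 to 8 with 1 library left out. With the replicate number as a further term (replicate block) 4 genes were called. Gene by gene, deviations of same-numbered libraries correlated at -0.01 to 0.03, so the numbers were not taken to pair the samples. This correlation does not register a shift common to all genes. The new share of exonic reads was higher in replicate 1 than in replicate 2 of every chemistry under both handlings. The handling fit had no term for the replicate number. The handling count was 1176, 1508 with raw totals and 1280 with STAR, and it was not run with libraries left out. Without 1 library, the share difference was 16.6 to 18.2 points and the T difference 4.73 to 5.69 positions; the smallest p these tests then allow is 0.0556 and 0.0625. Of the 8 genes given by identifier, ENSG00000248527 reversed, to -0.66 with STAR and -0.36 with HISAT2; the cause was not tested. The other 7 kept their direction and call wherever tested. Gene lists with raw totals or STAR were not run, for want of symbols. The labelled libraries held 128579 to 444532 new reads, which limits the precision of genes with few of them.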
